A study of Mus musculus with 8 samples.

Results

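A set of 10 tendon genes was followed in mouse gastrocnemius muscle, the calf muscle that ends in the Achilles tendon. The set held the transcription factor genes Scx and Mkx and the membrane glycoprotein gene Tnmd. It also held Fmod, Kera and Chad of the leucine-rich proteoglycan family, and the matrix glycoprotein genes Comp, Thbs4, Tnc and Cilp. The genes were chosen by name as tendon genes, with earlier results of these data known. Each had 1 transcript cluster, the set of array probes that is summarised into 1 value, with a single gene symbol, so that all 10 were measured, out of 19938 genes in all. The samples came from 8 male mice of 6 months on a chow diet, fasted for 5 h, with 1 Affymetrix whole-transcript array per animal. The 4 knockout mice (Gcn5skm-/-) had the genotype HSAcre Tg/0 x Gcn5 L2/L2, in which Cre under the human skeletal actin promoter recombines the floxed gene for Gcn5 (Kat2a) in muscle fibres and not, by that promoter, in the tendon or other cells of the sample. The 4 wild-type mice (Gcn5skm+/+) had the genotype HSAcre 0/0 x Gcn5 L2/L2, with the same floxed alleles and no Cre, so the transgene and the deletion cannot be told apart. All values below are log2 expression values unless a fold is named.

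Tendon joins muscle to bone through parallel fibrils of type I collagen that are made and kept by tenocytes. In mice, Scleraxis (Scx), a basic helix-loop-helix factor that binds E-box DNA, marks tendon progenitors and acts upstream of tenomodulin (Tnmd), and Mohawk (Mkx), a homeobox factor, is needed for normal growth of the collagen fibrils. The small leucine-rich proteoglycans bind collagen and set fibril width, while the thrombospondin relatives Comp and Thbs4 and the tenascin Tnc link fibrils, cells and growth factors. In a piece of gastrocnemius such transcripts can come from tendon ends, the aponeurosis and the connective tissue sheets between fibres. A bulk sample cannot tell fewer cells of a type from less RNA per cell.

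The arrays were alike in overall distribution, with array medians between 4.61 and 4.72 and mean correlations with the other arrays between 0.987 and 0.992. Kat2a measured 5.79 ± 0.05 in knockouts and 6.46 ± 0.03 in wild types (SD, n = 4 each; difference -0.66, limma adjusted p = 0.0319). The difference kept its size in every refit, between -0.64 and -0.68, but not its call, which was lost in 6 of the 8 refits without 1 array (limma adjusted p up to 0.137) and with the replicate block (0.113). The labelled muscle tissue was checked with the fast-fibre list (Ckm, Acta1, Myh4 and other contractile genes), whose mean lay between 11.80 and 12.04 in knockouts and between 11.95 and 12.03 in wild types. The means of the cartilage and bone marker lists lay below the array medians. The cartilage list mean lay between 4.27 and 4.41 in knockouts and between 4.14 and 4.42 in wild types. The bone list mean lay between 3.86 and 3.92 in knockouts and between 3.86 and 4.03 in wild types. Single genes of both lists lay on either side of the medians. In knockouts Cytl1 averaged 6.13 and Acan 3.24 among cartilage genes, and Alpl 6.33 and Mepe 2.40 among bone genes. In knockout 4 the mean of 16 macrophage markers was 6.29, against 5.68 to 5.95 in the other knockouts and 5.52 to 5.66 in the wild types.

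The RefSeq promoter windows of 7 of the 10 genes were read on GRCm38.p6, each from 250 bases before to 50 bases after the start of transcription. Those of 5 genes are printed. Fmod, Thbs4, Chad and Tnmd were taken because they were in the pairs of members with the highest Pearson correlations across the arrays. Cilp was taken because its median Pearson correlation with the other members was the lowest. The motif searched was the E-box, CANNTG, the word that Scx and other basic helix-loop-helix factors bind, which reads the same on both strands. Matches are in capitals and all other bases in lower case. The windows are chr1:134037004-134037303 on the plus strand for Fmod, chr13:92794769-92795068 on the minus strand for Thbs4, chr11:94564797-94565096 on the plus strand for Chad, chrX:133850758-133851057 on the plus strand for Tnmd and chr9:65264930-65265229 on the plus strand for Cilp.
Fmod: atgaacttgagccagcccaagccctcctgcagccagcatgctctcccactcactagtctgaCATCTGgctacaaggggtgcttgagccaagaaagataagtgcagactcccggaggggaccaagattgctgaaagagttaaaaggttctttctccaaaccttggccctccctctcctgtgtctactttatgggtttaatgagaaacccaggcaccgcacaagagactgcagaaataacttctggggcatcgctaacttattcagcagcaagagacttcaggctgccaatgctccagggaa
Thbs4: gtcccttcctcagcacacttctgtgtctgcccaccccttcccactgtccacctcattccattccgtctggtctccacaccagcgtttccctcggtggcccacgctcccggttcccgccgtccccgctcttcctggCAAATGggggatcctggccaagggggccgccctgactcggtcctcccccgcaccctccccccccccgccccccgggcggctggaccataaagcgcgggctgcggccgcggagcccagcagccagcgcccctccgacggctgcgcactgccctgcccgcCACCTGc
Chad: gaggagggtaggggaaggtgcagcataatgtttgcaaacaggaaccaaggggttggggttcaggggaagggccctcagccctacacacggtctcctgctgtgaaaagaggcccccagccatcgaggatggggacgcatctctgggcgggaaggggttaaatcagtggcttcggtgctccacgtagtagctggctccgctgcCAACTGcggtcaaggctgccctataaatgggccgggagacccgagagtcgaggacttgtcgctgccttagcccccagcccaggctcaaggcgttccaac
Tnmd: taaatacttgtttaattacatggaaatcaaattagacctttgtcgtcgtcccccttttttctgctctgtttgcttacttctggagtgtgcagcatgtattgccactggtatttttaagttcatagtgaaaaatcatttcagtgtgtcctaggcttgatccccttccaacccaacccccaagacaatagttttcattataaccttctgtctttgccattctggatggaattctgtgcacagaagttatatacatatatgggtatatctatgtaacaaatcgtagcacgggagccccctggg
Cilp: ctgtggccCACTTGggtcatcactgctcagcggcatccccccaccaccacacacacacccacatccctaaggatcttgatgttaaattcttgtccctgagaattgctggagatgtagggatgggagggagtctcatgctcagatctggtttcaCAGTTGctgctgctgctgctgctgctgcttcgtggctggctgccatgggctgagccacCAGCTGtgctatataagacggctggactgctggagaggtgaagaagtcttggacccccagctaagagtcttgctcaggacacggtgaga
Fmod held 1 E-box, catctg, 189 bases before the start, and Chad held 1, caactg, 49 bases before it. Thbs4 held 2, of which caaatg lay 115 bases before the start. Cilp held 3, as do 3 or more in 17.6% of all windows, while Tnmd and Kera (not printed) held 0. Tnc (not printed) held 2 in 1 window and 3 in another that overlaps it. An E-box is common, since 72.3% of all 32851 promoter windows of that length hold at least 1, with a median of 1. The words CAGATG and CATCTG were found in Fmod alone among the members' windows and in 17.2% of all windows. A match is a stretch of letters and was not tested as a binding site.

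Among the transcription factor genes, Scx measured 5.72, 5.76, 5.75 and 5.41 in knockouts 1 to 4, against 5.70, 5.57, 5.64 and 5.39 in wild types 1 to 4. The 4th animal of each genotype was lowest, and the other 6 arrays lay within a narrow band. Mkx measured 4.35, 4.47, 4.61 and 4.28 in knockouts, against 4.59, 4.68, 4.32 and 4.27 in wild types. Its 2 lowest arrays were also knockout 4 and wild type 4, and its highest was wild type 2. Both factors varied little, with SDs of 0.15 and 0.16 over the 8 arrays.

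Tnmd, the membrane protein that marks mature tenocytes, measured 5.43, 6.21, 6.03 and 5.42 in knockouts, against 5.69, 5.84, 5.59 and 5.47 in wild types. Knockouts 2 and 3 were the highest arrays and knockouts 4 and 1 the lowest, with every wild type between them. The highest and lowest arrays differed 1.72-fold.

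The leucine-rich proteins had the widest swings. Fmod, the fibromodulin that guides collagen fibril assembly, measured 8.37, 9.64, 9.05 and 8.09 in knockouts, against 8.89, 8.67, 9.05 and 8.40 in wild types. Chad, chondroadherin, which ties cells to collagen through integrins, measured 6.32, 8.06, 7.11 and 5.27 in knockouts, against 7.05, 6.92, 6.42 and 6.44 in wild types. For both genes knockout 2 was highest and knockout 4 lowest, 2.93-fold apart for Fmod and 6.93-fold apart for Chad, with all 4 wild types inside the span of the knockouts. Kera, keratocan, a keratan sulfate proteoglycan best known from the cornea, measured 5.13, 6.25, 5.95 and 5.68 in knockouts, against 5.58, 5.69, 5.55 and 4.90 in wild types. Knockout 2 was again highest, while wild type 4 and knockout 1 were lowest.

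The matrix glycoproteins differed in which array was highest. Comp, a thrombospondin-family protein that binds collagen fibrils, measured 5.20, 6.04, 5.53 and 4.81 in knockouts, against 5.49, 5.10, 5.27 and 5.20 in wild types. Thbs4, the thrombospondin of tendon and muscle attachment, measured 8.17, 8.93, 8.58 and 8.10 in knockouts, against 8.19, 8.11, 8.64 and 7.98 in wild types. Both peaked in knockout 2, as Fmod and Chad did, and the lowest array was knockout 4 for Comp and wild type 4 for Thbs4. Tnc, tenascin-C, a matrix protein of loaded attachments, measured 5.12, 5.37, 5.23 and 5.01 in knockouts, against 5.01, 5.13, 5.40 and 4.48 in wild types. Cilp, a cartilage matrix protein that binds the growth factor TGF-beta, measured 5.81, 6.34, 6.32 and 6.21 in knockouts, against 6.19, 6.31, 6.62 and 6.28 in wild types. Tnc and Cilp were highest in wild type 3, and wild type 4 was the lowest array for Tnc, whereas for Cilp it was knockout 1. In each of the 10 genes the values of the 2 genotypes overlapped.

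**Figure D1:**
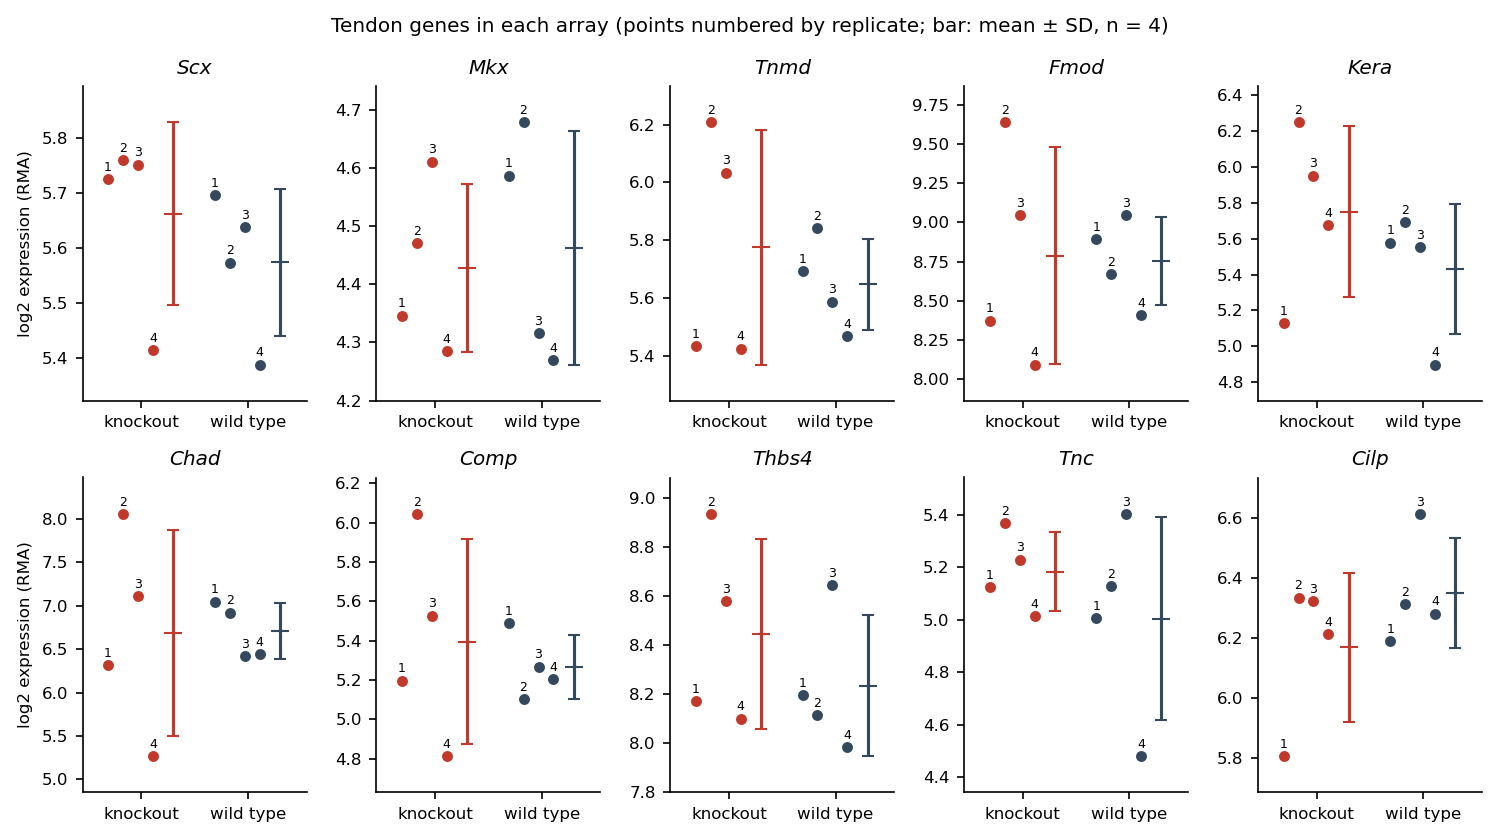
Log2 expression (vertical axis, RMA values) of the 10 tendon genes, 1 panel per gene, in 4 knockouts (left) and 4 wild types (right). Points are arrays numbered by replicate and the bar beside each group is mean ± SD (n = 4). In Fmod, Comp and Chad knockout 2 is the highest point and knockout 4 the lowest, with the wild types between them.

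Across the 8 arrays most of the tendon genes varied more than other genes did. All but Scx and Mkx, which stood at the 46.9 and 57.3 percentile of all genes by SD, stood at the 84.3 percentile or above. The SD was 0.80 for Chad, 0.49 for Fmod, 0.43 for Kera, 0.36 for Comp and 0.34 for Thbs4, and 5 of the 10 genes reached 0.3, as did 4.50% of all genes. Summarised as the mean of the 10 genes after each was centred on its own mean over the arrays, called the tendon profile here, knockout 2 lay at 0.52, knockout 3 at 0.23, knockout 1 at -0.22 and knockout 4 at -0.36. Wild types 1, 2 and 3 lay at 0.05, 0.02 and 0.06, and wild type 4 at -0.30. Knockouts 2 and 3 were above the gene's own mean in 10 of 10 genes, while knockout 4 and wild type 4 were above it in 1 gene each, Kera and Cilp. Knockout 2 was the highest array for 7 of 10 genes, against 7.75% of all genes. Knockout 4 or wild type 4 was the lowest array for 9 of 10, against 25.6% of all genes, and knockout 4 alone for 4 of 10, against 11.9%. Among the wild types, wild type 4 was lowest for 7 of 10, against 21% of all genes. Knockouts 2 and 3 both exceeded knockouts 1 and 4 in 10 of 10 genes, against 18.5% of all genes. These array-wise counts were chosen after the values were seen, and the 10 genes share the same 8 RNA samples, so they are given with no test.

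The spread was unequal between genotypes for some of the genes. The SD over knockouts was above that over wild types in 8 of 10 genes, against 32.4% of all genes, and at least 2 times as large in 4 of 10 (Chad, Comp, Tnmd and Fmod), against 7.75% of all genes. For Chad the SD was 1.19 in knockouts and 0.32 in wild types, and for Comp 0.52 in knockouts and 0.16 in wild types. Tnc went the other way, with 0.15 in knockouts and 0.39 in wild types. With 4 animals a group, whether these spreads differ between genotypes was not tested.

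**Figure D2:**
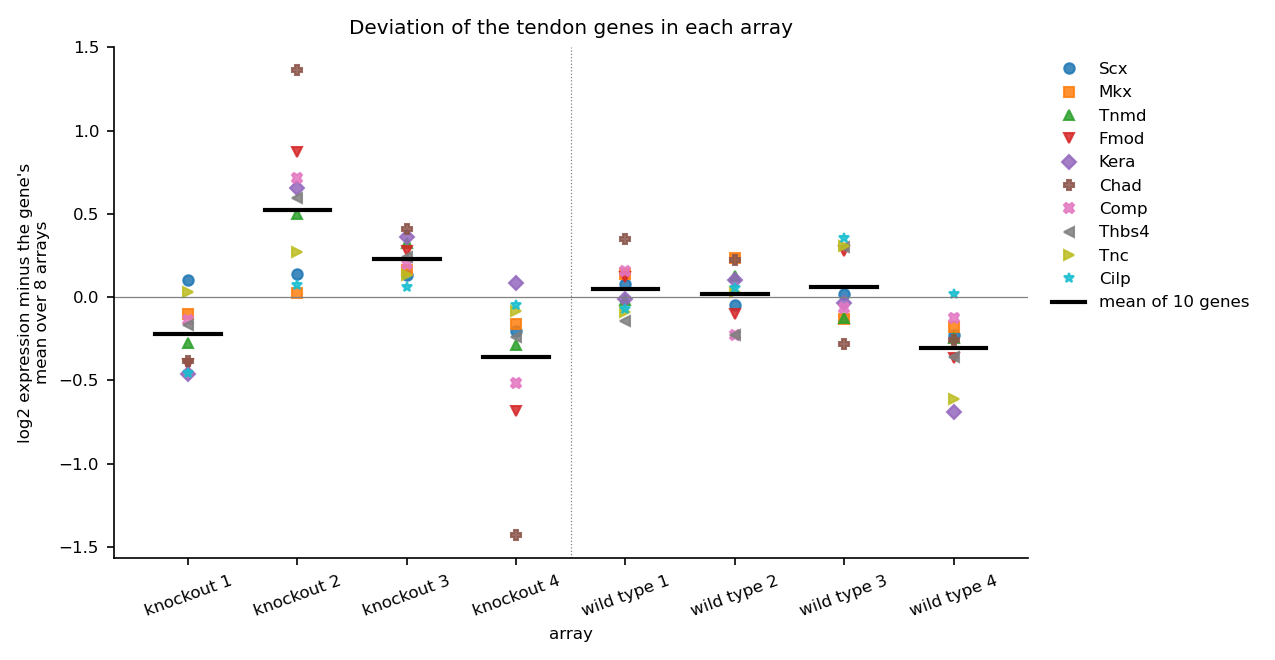
Deviation of each tendon gene from its own mean over the 8 arrays (log2 units, vertical axis) in each array (horizontal axis, knockouts left of the dotted line). Symbols are genes and the black bars are their mean, which is 0.52 in knockout 2, 0.23 in knockout 3, -0.36 in knockout 4 and -0.30 in wild type 4.

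The genes varied together. Of the 45 pairs, 44 had a Pearson correlation above 0 over the 8 arrays, with a median of 0.62, against a median of 0.00 over all pairs of genes in the table. A correlation of 0.7 or more was reached by 17 pairs (37.8%), as by 4.73% of all gene pairs. The highest correlations were all between genes among Fmod, Comp, Chad, Thbs4 and Tnmd, though not every pair of these was tight (r = 0.65 for Thbs4 and Chad). Comp and Chad correlated at r = 0.92 (Spearman's rho 0.83, exact permutation p = 0.00479 for r and 0.0154 for rho, 0.0413 and 0.115 adjusted over the 45 pairs). Fmod correlated with Comp at r = 0.92 (rho 0.86), with Thbs4 at 0.90 (rho 0.88) and with Chad at 0.89 (rho 0.76). Tnmd correlated with Chad at 0.87 (rho 0.95) and with Fmod at 0.86 (rho 0.83).

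These 6 pairs passed an exact permutation test of Pearson's r adjusted over the 45 pairs, with adjusted p between 0.0316 and 0.0413, whereas 0 pairs passed by Spearman's rho, where the smallest exact adjusted p was 0.0513 for Tnmd and Chad. At an unadjusted exact p under 0.05, 15 pairs passed by Pearson's r. When the 2 arrays farthest from the median of the first gene were left out, r of the 6 pairs lay between 0.56 and 0.84, lowest for Fmod and Chad and highest for Fmod and Thbs4, so part of the height of r rests on knockouts 2, 3 and 4. With the mean of each genotype removed r stayed at 0.87 or above in all 6 pairs. Within the 4 knockouts the median r over the 45 pairs was 0.79 and within the 4 wild types it was 0.51, each from 4 arrays and given as a description. For the 6 pairs above, r within the knockouts was 0.92 or more. Within the wild types it was 0.89 for Fmod and Thbs4 and 0.79 for Tnmd and Chad. It was lower there for Fmod and Comp (0.49), Comp and Chad (0.35), Tnmd and Fmod (0.26) and Fmod and Chad (0.13). The remaining pairs of these genes were looser. Within the wild types r was 0.20 for Comp and Thbs4, -0.03 for Tnmd and Thbs4, -0.14 for Tnmd and Comp and -0.32 for Thbs4 and Chad. Without the 2 farthest arrays r of these remaining pairs lay between 0.13, for Tnmd and Thbs4, and 0.49, for Comp and Thbs4.

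Mkx and Cilp had the lowest median r with the other members and reached 0.7 with none of them. Scx correlated with Tnc, Comp and Fmod at 0.72, 0.71 and 0.71, and its median r with the other members was 0.67. Mkx had a median r of 0.43, with 0.68 for Tnmd and 0.16 for Thbs4. Cilp had a median r of 0.27 and a highest r of 0.48, with Fmod, and with Scx it gave the only pair below 0 (r = -0.11). Its place depended on the measure. By Spearman's rho Cilp ranged from 0.12 with Mkx to 0.79 with Fmod and with Tnc, and with Scx it was at 0.21. With the mean of each genotype removed, r of Cilp was 0.72 with Thbs4, 0.03 with Scx and 0.02 with Mkx. Tnc lay closest to Thbs4 (r = 0.78) and Kera to Tnmd (r = 0.84, exact permutation p = 0.0094, 0.0529 adjusted over the 45 pairs).

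**Figure D3:**
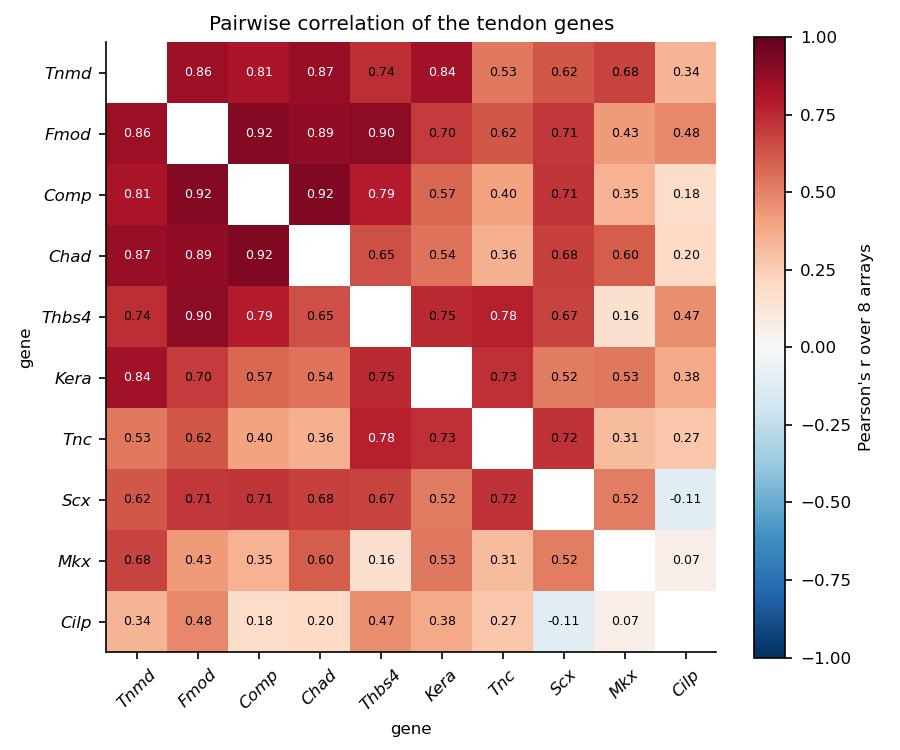
Pearson correlation over the 8 arrays between each pair of tendon genes, as colour and number, with the same genes on both axes. The dark block at the upper left holds Tnmd, Fmod, Comp, Chad and Thbs4 with values from 0.65 to 0.92, and the palest row is Cilp, from -0.11 to 0.48.

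Some other genes of tendon matrix and tendon surface followed the same arrays. The gene most like the tendon profile, among 893 other genes with an SD of at least 0.3, was Angptl7, a secreted protein of the angiopoietin-like family, with r = 0.94 (rho 0.90) and between 0.93 and 0.96 when single arrays were left out. Angptl7 measured 7.27, 8.27, 8.26 and 6.82 in knockouts, against 7.74, 7.48, 7.46 and 6.79 in wild types. As in the tendon profile, knockouts 2 and 3 were highest and the 4th animals lowest. Angptl7 was the only 1 of the 893 to reach 0.9. The next were Ramp1, a receptor-associated membrane protein of the CGRP receptor (0.86), Prg4, lubricin, which coats joint and tendon surfaces (0.86), Car4, a membrane-bound carbonic anhydrase (0.85), Gm826 (0.83) and Fam13a (0.82). Prg4 measured 5.92, 7.37, 6.59 and 5.59 in knockouts, against 6.50, 6.99, 6.48 and 6.35 in wild types. Likeness was measured over 8 arrays that share their RNA with the 10 genes, and is a description.

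Beyond the 10 genes, 5 lists of tendon-related genes were read in the same way. In the list of sheath and other tendon markers 5 of 15 measured genes had r of at least 0.7 with the tendon profile (Angptl7, Abi3bp, Prg4, Cpxm2 and Wif1), or 33.3% of the list, against 1.95% of all genes. Abi3bp, an extracellular matrix protein, reached 0.92, though it varied little (SD 0.17 over the 8 arrays). Among collagens and their modifying enzymes 3 of 15 reached 0.7, led by Col12a1, a collagen on the surface of fibrils, at 0.97 (SD 0.15). Col1a2 followed at 0.71 (SD 0.20) and Col11a1 at 0.70 (SD 0.09). Among the other thrombospondins and tenascins 2 of 9 did so (Thbs2 at 0.82 and Thbs1 at 0.78), and among other leucine-rich proteoglycans 1 of 14 (Prelp at 0.71). Among regulators and TGF-beta or GDF signals 0 of 22 did so, and neither did any of 10 myotendinous junction genes, 13 cartilage genes or 7 bone genes. The collagen Col22a1, which marks the myotendinous junction, had r = 0.00103. It measured between 5.41 and 5.45 in every array but wild type 2, at 4.95, so its r rests mostly on that array.

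**Figure D4:**
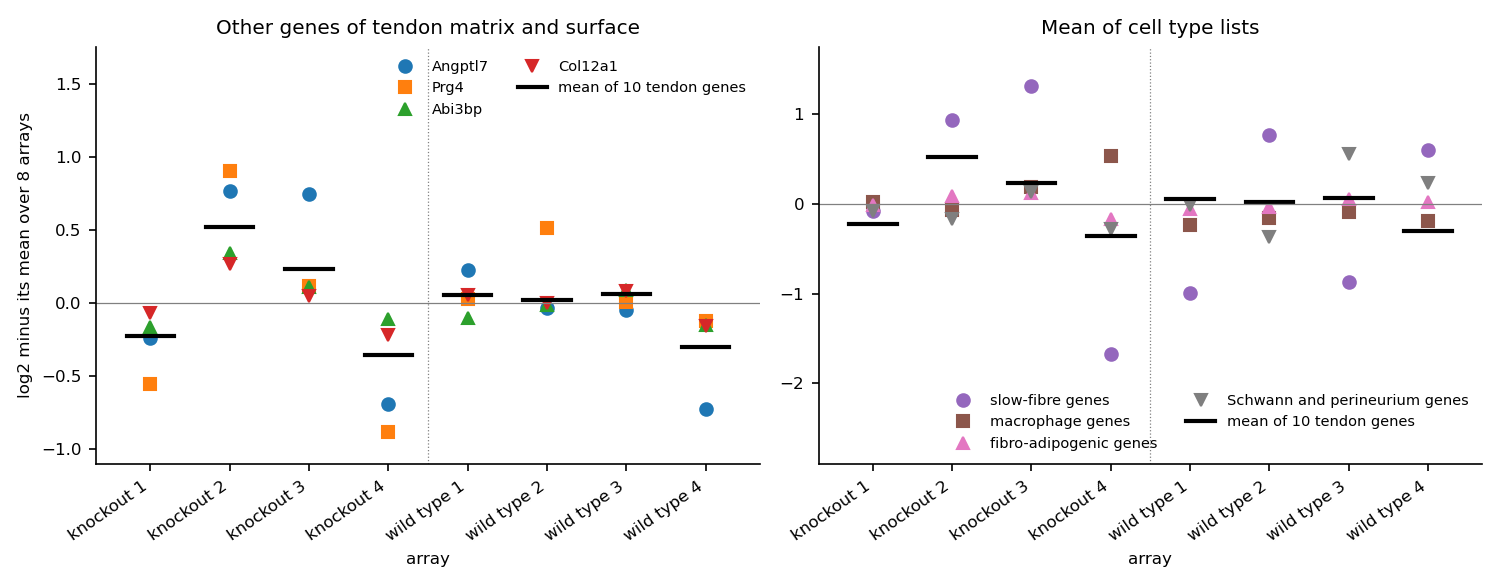
Values minus their mean over the 8 arrays (log2 units, vertical axes) in each array (horizontal axes, knockouts left of the dotted lines), with the tendon profile as black bars. Left, Angptl7, Prg4, Abi3bp and Col12a1 lie above 0 in knockout 2 and below 0 in knockouts 1 and 4. Right, the means of 4 cell type lists, of which the slow-fibre list is high in knockouts 2 and 3 and lowest in knockout 4, and the macrophage list is highest in knockout 4.

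Levels of other cell types did not run in step with the tendon profile in every array. The slow-fibre list (10 of 10 genes measured) averaged 7.06, 8.08, 8.46 and 5.46 in knockouts, against 6.15, 7.91, 6.26 and 7.73 in wild types. It was high in knockouts 2 and 3 and lowest in knockout 4, as the tendon genes were, but wild type 4, low in tendon genes, was high in slow-fibre genes. The macrophage list averaged 5.77, 5.68, 5.95 and 6.29 in knockouts, against 5.52, 5.59, 5.66 and 5.57 in wild types. Its mean was highest where the tendon profile was lowest, in knockout 4. Its genes were split there, with Gpnmb, Lgals3, Cd68 and Ctss at their highest and Cd163, Pf4 and Cd14 at their lowest. The list of fibro-adipogenic progenitors, the fibroblast-like cells between fibres, averaged 7.09, 7.19, 7.23 and 6.94 in knockouts, against 7.05, 7.07, 7.17 and 7.13 in wild types, with r of at least 0.7 with the tendon profile in 2 of 14 genes (Cd34 and Col15a1). Over the 8 arrays the mean of this list correlated with the tendon profile at 0.70, that of the slow-fibre list at 0.51 and that of the macrophage list at -0.29, from the same 8 RNA samples. The median r of the 14 fibro-adipogenic genes was lower, at 0.43, and Lpl (r = 0.58, SD 0.53) varied most among them. The mean of the endothelium list correlated at 0.48, that of the Schwann and perineurium list at 0.03 and that of the adipocyte list at -0.20. The mean of the fast-fibre list correlated at 0.67 while the median r of its 12 genes was -0.48, since Myh2 (r = 0.67, SD 0.87) and Myh1 (r = 0.74, SD 0.44), myosin genes of oxidative and intermediate fast fibres, varied far more than the others, such as Ckm (r = -0.65, SD 0.04). The part of these cell types in the tendon pattern was not tested.

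The comparison of knockout with wild type asks whether tendon transcripts of the muscle sample differ when its fibres lack Gcn5. Of the 10 tendon genes 0 passed limma's test with Benjamini-Hochberg adjustment over all 19938 genes at 0.05, where 0.015% of all genes passed, 0.00502% as higher and 0.01% as lower in knockouts. At an unadjusted limma p under 0.05 it was 0 of 10 genes, against 5.73% of all genes, and an exact two-sided permutation test of each gene, which can give no p below 0.0286, also called 0. The groups were separated in 0 of 10 genes, against 3.62% of all genes. The median difference of the 10 genes, knockout minus wild type, was 0.11, against -0.01 over all genes, and 7 of 10 were above 0, against 45.3% of all genes.

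Kera had the largest difference, with 5.75 ± 0.47 in knockouts and 5.43 ± 0.36 in wild types (0.32, SE 0.22, limma adjusted p = 0.877). Thbs4 averaged 8.44 ± 0.39 in knockouts and 8.23 ± 0.29 in wild types (0.21, SE 0.19, limma adjusted p = 0.911). Cilp was the gene with the largest negative value, with 6.17 ± 0.25 in knockouts and 6.35 ± 0.18 in wild types (-0.18, SE 0.13, limma adjusted p = 0.880). The other 7 differences lay between -0.03 for Mkx and 0.18 for Tnc, with limma adjusted p from 0.912 to 0.996. None of the 10 differences exceeded the larger of the 2 group SDs of its gene.

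The 95% intervals show what size of difference the 8 arrays leave possible. For Scx it ran from -0.14 to 0.32 and for Mkx from -0.28 to 0.21, the narrowest of the 10. For Chad it ran from -0.97 to 0.93 and for Fmod from -0.56 to 0.63, since the knockouts themselves were spread widely. The sign of several differences rested on single animals: without knockout 2 the median over the 10 genes was -0.03, and without knockout 4 it was 0.26, when 9 of 10 genes were above 0. Chad differed by -0.48 without knockout 2 and by 0.45 without knockout 4.

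**Figure D5:**
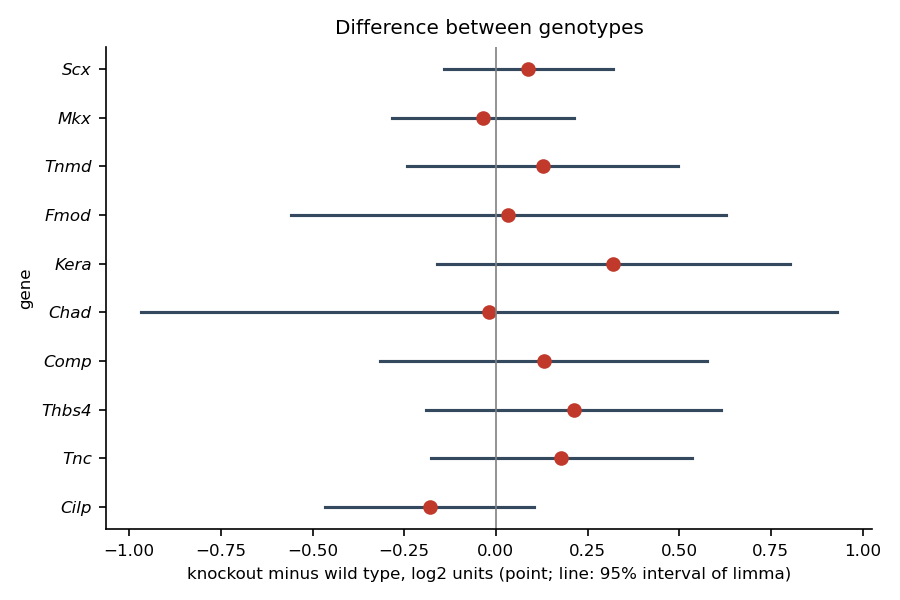
Difference between genotypes for the 10 tendon genes (horizontal axis, knockout minus wild type in log2 units). Points are limma estimates and lines their 95% intervals, all of which include 0, with the widest for Chad, from -0.97 to 0.93.

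In the wider tendon lists 0 genes passed over all genes either. Tppp3, a tubulin-binding protein that marks sheath cells of mouse tendon, came closest, with 7.42, 7.61, 7.46 and 7.34 in knockouts, against 7.80, 8.05, 8.27 and 7.98 in wild types. Every knockout was below every wild type (difference -0.56, SE 0.11, limma adjusted p = 0.193), and Tppp3 did not follow the tendon profile (r = 0.07). P4ha1, a subunit of the prolyl hydroxylase that stabilises collagen, measured 6.80 ± 0.11 in knockouts and 7.13 ± 0.08 in wild types (limma adjusted p = 0.538). Vcl, which encodes vinculin of cell attachments, measured 7.61 ± 0.04 in knockouts and 7.87 ± 0.06 in wild types (limma adjusted p = 0.742). The growth factor gene Tgfb3 measured 7.75 ± 0.12 in knockouts and 7.99 ± 0.13 in wild types, and Omd, osteomodulin, 3.62 ± 0.07 in knockouts and 3.30 ± 0.24 in wild types (limma adjusted p = 0.859 and 0.853).

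By list, the median difference was -0.01 for 15 collagen genes, 0.03 for 14 other proteoglycans, -0.07 for 9 thrombospondins and tenascins, -0.03 for 22 regulators, -0.03 for 15 sheath and tendon markers and 0.01 for 10 myotendinous junction genes. Each was within 0.1 of the median of all genes. Among the cell type lists the median was 0.20 for macrophages, of whose 16 genes 14 were above 0, 0.30 for slow fibres, -0.24 for 9 Schwann and perineurium genes, 0.08 for 9 adipocyte genes, -0.04 for endothelium, 0.03 for cartilage, and between -0.01 and 0.01 for bone, fibro-adipogenic progenitors and fast fibres. In these lists too, 0 genes passed over all genes in limma. At an unadjusted limma p under 0.05, as met by 5.73% of all genes, 7 of 16 macrophage genes were higher and 0 lower, 2 of 14 fibro-adipogenic genes higher and 1 lower, 1 of 9 adipocyte genes higher, 1 of 9 Schwann and perineurium genes lower, and 0 genes of the endothelium, cartilage, bone, slow-fibre and fast-fibre lists either way.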

How the data were processed

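RNA of gastrocnemius was measured on 8 arrays, 4 knockout and 4 wild type. The authors deposited log2 expression values for 35556 transcript clusters, which the submitters' processing notes credit to RMA and to Affymetrix Expression Console. RMA as a method corrects background, quantile-normalizes and summarises probes, which compresses differences of dim transcripts. Neither its version and settings nor a genome build is given in the sources used here. Of the clusters, 21789 carried 1 gene symbol in the platform annotation, and a gene with several was represented by its brightest cluster on average, giving 19938 genes, with no filter on dim genes.

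The difference between genotypes was estimated per gene by limma (version 3.58.1, R 4.3.3; lmFit, then eBayes). Its p-values were adjusted by Benjamini-Hochberg over the whole table and read at 0.05. Correlations used Pearson's r and Spearman's rho, each with an exact permutation p over all 40320 orders of 8 arrays (Python 3.11.15, scipy 1.17.1). The steps were tested on simulated data. The tendon genes, the other 15 lists (195 entries, of which 185 were measured) and the rule for named genes were chosen with earlier results of these data known. Named were the members, Kat2a, the 6 genes most like the tendon profile, and from each list up to 2 genes with the smallest p. Genes of the lists with r of at least 0.7, and Col22a1, were added after their values were seen. Alternatives were other normalizations, a filter on dim genes, cluster means, all clusters, other priors, array weights, the replicate block and leaving out each array, and after the data were seen, leaving out knockouts 2 and 4 together or Cilp. The number of arrays limits the precision.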

Additional observations from a re-analysis of the deposited data

Results flagged for a closer look

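In 94 sets of 4 arrays, 1 per named gene and genotype, 4 had an array that stood apart from the other 3 of its group, and chance alone gives about 1 in 20 such sets. Among the tendon genes it was Scx in knockout 4, at 5.41 against 5.72 to 5.76 in the other knockouts. P4ha1 measured 6.64 in knockout 3 against 6.84 to 6.86 in the other knockouts. Ucma, a cartilage gene, measured 3.33 in wild type 2 against 3.95 to 4.07 in the other wild types, and Phex, a bone gene, 2.83 in knockout 1 against at least 2.99 in the other knockouts.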

How the results depend on the processing

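The count of 0 tendon genes past the threshold held in all 18 alternatives to the limma test that were run, and 1 gene (Kera, without knockout 1) had an unadjusted limma p under 0.05 in any of them. Over all genes the 3 calls became 11 without the dimmest 25% of genes, 17 with an intensity trend and robust prior, and 0 with the replicate block, with all deposited clusters or without knockouts 2 and 4 together. They ranged from 0 to 5 when single arrays were left out (5 without wild type 1, 2 without wild type 2, and 0 without any 1 of the knockouts, wild type 3 or wild type 4). Kat2a was among the lost calls, with limma adjusted p of 0.113 with the block, 0.066 with all clusters and 0.356 without knockouts 2 and 4, and between 0.0355 and 0.137 without single arrays (below 0.05 only without wild type 1 or 2). The replicate numbers are not said to pair animals, so the main fit had no block. Deviations of same-numbered animals from their group means correlated at 0.09, 0.07, 0.22 and -0.10. The same-numbered wild type was the best match for knockouts 1 and 3 and not for knockouts 2 and 4. Such correlations cannot settle whether animals were paired, since paired animals can also correlate weakly. With the replicate block 0 tendon genes were called and their median difference was 0.11, both as without it. That median lay between 0.09 and 0.11 under the alternatives that kept all arrays, was 0.09 without knockouts 2 and 4, and lay between -0.03 and 0.26 when single arrays were left out, lowest without knockout 2 and highest without knockout 4. It was 0.02 without wild type 4 and 0.05 without knockout 3.

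Differences near 0 changed sign. Chad was at 0.018 after quantile normalization, 0.053 with array weights and 0.00466 without knockouts 2 and 4, where Fmod was at -0.044 and Mkx at 0.016. Over the refits without 1 array the differences ranged from -0.48 to 0.45 for Chad, -0.25 to 0.27 for Fmod, -0.086 to 0.32 for Comp, -0.017 to 0.24 for Tnmd and -0.10 to 0.037 for Mkx. The median correlation of the 45 pairs stayed between 0.52 and 0.68 in the 14 alternatives run, lowest without knockouts 2 and 4 and highest without Cilp. After quantile normalization 5 of the 6 called pairs passed, and Tnmd with Fmod did not (adjusted p = 0.0665). The causes were not tested.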
